A study of Mus musculus with 2 samples.

Results

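The 36 genes described here make sterols and fatty acids or control their synthesis. They comprise 18 enzymes on the way from acetyl-CoA to cholesterol, 5 genes of the sterol-sensing system around the SREBP transcription factors, 2 genes of cholesterol transport, 4 enzymes of acetyl-CoA supply and fatty acid synthesis, and 7 desaturases and elongases. They were chosen by name and role, with no threshold on their values but with earlier results of these data known. Of the 36 genes, 35 had a usable tag and so belong to the 14450 genes that could be compared. The exception was *Fdps*.

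Digital gene expression (DGE) profiling counts 21-base tags that start at a CATG site, the cutting site of *Nla*III, on the 3′ side of polyadenylated mRNA. The study asked how expression differs between the lines GC-1spg and GC-2spd (ts). GC-1spg was made by transforming type B spermatogonia of a mouse aged 10 days with pSV3-neo. GC-2spd (ts) was made by transforming spermatocytes of a mouse aged 6 weeks with the SV40 large T antigen. Both lines were grown in DMEM with 10% FBS, and each was sequenced once, so no difference below could be checked in replicates and the tests compare 2 libraries rather than cell types. The libraries hold 5072149 and 4726808 clean tags, and levels are given as TPM, the tags of a gene divided by all clean tags of its library and multiplied by 1000000, with no division by transcript length. Where values are paired in the text, GC-1spg comes first.

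The germ cell label was not borne out by the 8 germ cell markers examined (*Ddx4*, *Dazl*, *Sycp3*, *Stra8*, *Zbtb16*, *Kit*, *Dmc1* and *Mael*), of which 0 were listed in either library. A marker is listed here if it had sense tags that belong to that gene only. Tags shared with other genes were not counted for the markers. Of 6 fibroblast markers 5 were listed in both libraries, and their summed level was 2403 and 1359 TPM, with *Thy1* at 0 in both. The lower sum came from *Col1a1* (10465 and 2425 tags), while *Vim* (984 and 2897) and *Col3a1* (50 and 120) were called higher in GC-2spd (ts). Sertoli cell markers summed to 312 and 94.4 TPM (5 and 3 of 6 listed, *Fshr* at 0 in both), with *Wt1* (620 and 0 tags) and *Clu* (902 and 262) called lower but *Gata4* (29 and 138) called higher. Peritubular myoid markers summed to 13.0 and 122 TPM (3 and 4 of 4 listed), nearly all of it *Acta2* in GC-2spd (ts) (50 and 555 tags), while *Des* gave 11 and 4 tags. Of the lipid-handling cell types, Leydig cells gave 4 and 5 tags over 6 markers, with *Cyp17a1* and *Insl3* at 0, and adipocytes 6 and 0 tags over 5 markers, with *Adipoq* and *Plin1* at 0. The part of these marker differences in the results below was not tested. Each library came from a cultured cell line, not from a tissue. In bulk RNA of a line, fewer expressing cells and less RNA per cell cannot be told apart.

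Cells make cholesterol from acetyl-CoA through mevalonate, isoprenoid units, squalene and lanosterol, and they make fatty acids from the same acetyl-CoA by carboxylation and repeated condensation. Both pathways are driven by SREBP factors, which SCAP escorts out of the endoplasmic reticulum when sterols are scarce and which INSIG proteins hold back when sterols are plentiful. In the testis, cholesterol is the precursor of steroid hormones, and polyunsaturated fatty acids are abundant in germ cell membranes.

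In these libraries several steps of sterol synthesis and the elongase *Elovl6* were higher in GC-2spd (ts), while *Insig2* and *Fads2* were lower. A gene was called when the two-sided Audic-Claverie test gave a false discovery rate (FDR, Benjamini-Hochberg) no higher than 0.001 and the levels differed at least 2-fold. By this rule 8 of the 35 genes were called higher in GC-2spd (ts) (22.9%, against 11.7% of all genes tested) and 2 were called lower (5.71%, against 7.84% of all genes tested). The 8 were *Pmvk*, *Cyp51*, *Msmo1*, *Sc5d*, *Scap*, *Acss2*, *Fasn* and *Elovl6*. The median log2 ratio of GC-2spd (ts) over GC-1spg was 0.50 for the listed genes and 0.16 for the 11373 genes found in both libraries. Abundant genes are called more often, and among the 7100 genes with at least 100 tags over both libraries 16.5% were called higher and 8.77% lower. Of the 29 listed genes at this depth, 6 were called higher (20.7%) and 2 lower (6.90%).

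Scaling bore on these counts. TMM scaling lowered every log2 ratio by 0.17 and turned the 1684 higher and 1133 lower calls over all genes into 1292 and 1443. Under it 7 listed genes were called higher and 2 lower. The median of the listed genes was then 0.33, against -0.010 for the genes found in both libraries. Of the 35 ratios 24 rather than 26 were above 0. Before TMM scaling, 8043 of all 14450 genes had a ratio above 0. With a spread between replicates assumed rather than measured (a biological coefficient of variation, BCV, of 0.2 in edgeR's exact test), the 8 higher calls became 1, *Elovl6*, and the 2 lower calls became 0.

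**Figure D1:**
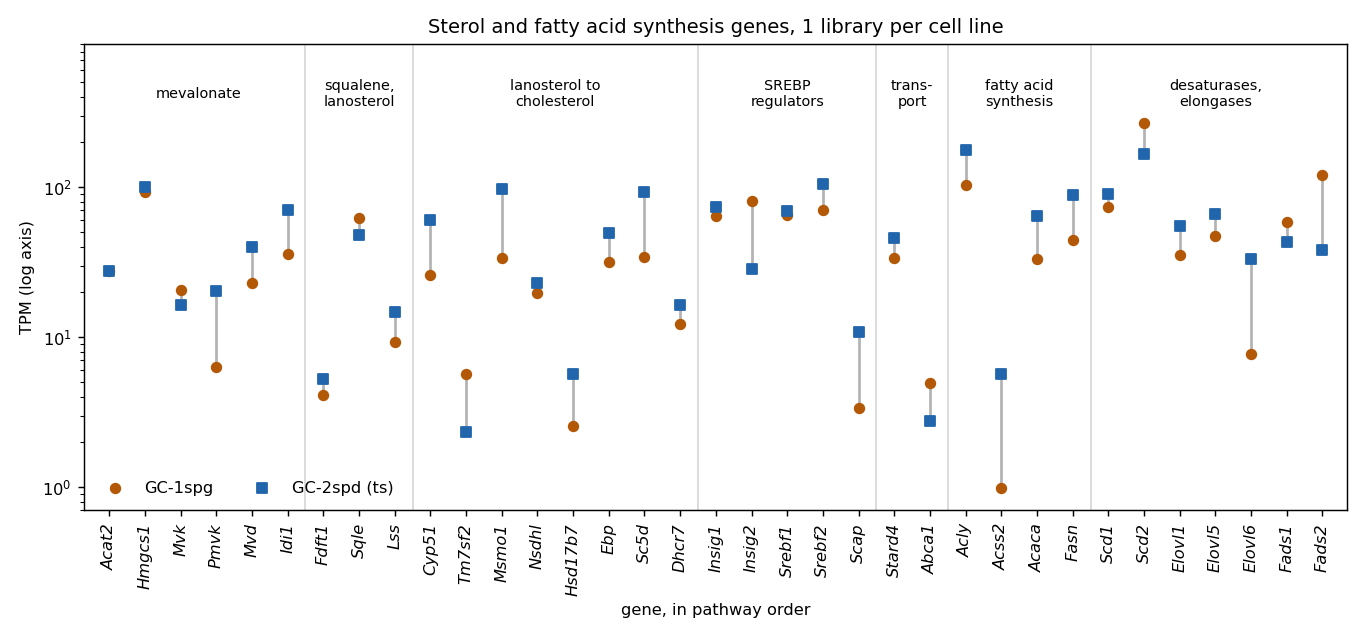
Level of the 35 listed genes with unambiguous tags in GC-1spg (circles) and GC-2spd (ts) (squares), in TPM on a log axis, in pathway order with 1 library per line. The GC-2spd (ts) square lies well above the circle for *Pmvk*, *Cyp51*, *Msmo1*, *Hsd17b7*, *Sc5d*, *Scap*, *Acss2* and *Elovl6*. It lies well below the circle for *Tm7sf2*, *Insig2* and *Fads2*. Of these genes, *Hsd17b7* (13 and 27 tags) and *Tm7sf2* (29 and 11 tags) were not called.

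The mevalonate steps turn acetyl-CoA into the isoprenoid units of sterols. Of their 6 genes with unambiguous tags 1 was called higher, *Pmvk* (16.7%, against 11.7% of all genes tested), and 0 lower (against 7.84%). The summed level of the 6 genes was 206 and 275 TPM. *Pmvk*, the kinase that adds the second phosphate to mevalonate, gave 32 and 96 tags (6.31 and 20.3 TPM), which is 3.22-fold higher in GC-2spd (ts) (log2 ratio 1.69, exact 95% interval 1.10 to 2.31, FDR 7.11e-09 by the Audic-Claverie test). The intervals here and below cover counting error only. Most of this came from 1 tag, shown because the call rests on it, with the CATG site in capitals:
Pmvk: CATGatgggcaggctgcagag
It lies in the 3′ UTR in exon 5 of 5 at chr3:89468919-89468939 of GRCm38, on the plus strand, and was counted 29 and 96 times.

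The neighbouring steps were not called. *Acat2*, the cytosolic thiolase that begins the pathway, gave 141 and 130 tags (log2 ratio -0.02, interval -0.37 to 0.34), and its ratio was 0.35 with antisense tags added. *Hmgcs1*, HMG-CoA synthase, gave 471 and 476 tags (0.12, -0.07 to 0.30), a ratio that TMM scaling turned to -0.057. *Mvk*, mevalonate kinase, gave 104 and 78 tags (-0.31, -0.76 to 0.12). The intervals of these 3 genes hold 0. *Mvd*, the decarboxylase that follows *Pmvk*, gave 117 and 188 tags (0.79, 0.45 to 1.13) and *Idi1*, the isomerase of the isoprenoid unit, gave 181 and 334 tags (0.99, 0.72 to 1.25). Both passed the FDR (1.44e-05 and 3.75e-13) and missed the 2-fold limit, *Idi1* narrowly at 1.98-fold, and with antisense tags added *Idi1* was called (1.01).

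*Fdps*, which joins isoprenoid units to farnesyl diphosphate, could not be assigned tags of its own. Its main tag, shown because it also occurs in other transcripts, matched 7 genes exactly, *Fdps* and 6 predicted genes:
Fdps: CATGgaacttgcaaacaagat
In *Fdps* it lies in the coding sequence in exon 11 of 11, at chr3:89093662-89093682 of GRCm38 on the minus strand. It was counted 705 and 1222 times (139 and 259 TPM, log2 ratio 0.90, interval 0.76 to 1.03). How much of this count belongs to *Fdps* is uncertain, since the 7 genes share the letters. With shared tags added whole to every gene they match, *Fdps* had 710 and 1243 tags (0.91, 0.78 to 1.04) and was not called.

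Of the 3 genes from farnesyl diphosphate to lanosterol, 0 were called higher (against 11.7% of all genes tested) and 0 lower (against 7.84%). *Fdft1*, squalene synthase, gave 21 and 25 tags (log2 ratio 0.35, interval -0.54 to 1.26). *Sqle*, squalene epoxidase, gave 314 and 227 tags (-0.37, -0.62 to -0.12), and *Lss*, which closes the ring to lanosterol, gave 47 and 70 tags (0.68, 0.12 to 1.24). The FDR was 0.00879 for *Sqle* and 0.0342 for *Lss*, short of the threshold. With sense matches preferred over antisense ones, *Lss* had a ratio of 0.84 and an FDR of 1.09e-11, still below 2-fold. By unambiguous tags alone the 3 genes summed to 75.3 and 68.1 TPM. In this count they were the only group of sterol enzymes here whose sum was not higher in GC-2spd (ts). Their sum with sense matches preferred was not taken.

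The 8 enzymes from lanosterol to cholesterol had a median log2 ratio of 0.90, against 0.16 over all genes, and summed to 166 and 347 TPM. Of them 3 were called higher (37.5%, against 11.7% of all genes tested) and 0 lower (against 7.84%). A ratio above 0 was found for 7 of them, and for 8043 of the 14450 genes tested. The called genes act at demethylation and at a late desaturation of the ring. *Cyp51*, the P450 that removes the methyl group at the start of this stretch, gave 132 and 287 tags (26.0 and 60.7 TPM), 2.33-fold higher in GC-2spd (ts) (log2 ratio 1.22, interval 0.92 to 1.53, FDR 8.23e-16). *Msmo1*, the oxidase of the next methyl groups, gave 172 and 458 tags (33.9 and 96.9 TPM), 2.86-fold higher (1.51, 1.26 to 1.78, FDR 3.60e-34). *Sc5d*, the sterol desaturase, gave 174 and 441 tags (34.3 and 93.3 TPM), 2.72-fold higher (1.44, 1.19 to 1.70, FDR 1.11e-30). The call of *Cyp51* was lost when tags shared with other genes were added, which left a log2 ratio of 0.92.

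The most abundant tags of the 3 genes, shown because each is the gene's leading tag over both libraries, all lie in the 3′ UTR of the last exon, on the minus strand of GRCm38:
Cyp51: CATGcccttaatctgtgttag
Msmo1: CATGttttattcttataagga
Sc5d: CATGcatactcattaaggaaa
They lie at chr5:4082262-4082282, chr8:64718176-64718196 and chr9:42255015-42255035. The *Cyp51* tag was counted 72 and 96 times, the *Msmo1* tag 105 and 345 times, and the *Sc5d* tag 94 and 207 times. The leading tag held 54.5% and 33.4% of all *Cyp51* tags, 61.0% and 75.3% of all *Msmo1* tags, and 54.0% and 46.9% of all *Sc5d* tags, so for *Cyp51* and *Sc5d* much of the difference came from other tags.

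The other enzymes of this stretch were not called. *Nsdhl* and *Hsd17b7*, which work with *Msmo1* to take off the methyl groups, gave 100 and 109 tags (log2 ratio 0.23, interval -0.18 to 0.63) and 13 and 27 tags (1.16, 0.15 to 2.23, FDR 0.0463). *Ebp*, the isomerase that moves the ring double bond, gave 160 and 232 tags (0.64, 0.34 to 0.94), and *Dhcr7*, the final reductase, gave 62 and 77 tags (0.41, -0.09 to 0.92). *Tm7sf2*, a sterol reductase whose reaction the lamin B receptor can also carry out, was the one gene of this stretch with a ratio below 0, with 29 and 11 tags (-1.30, -2.45 to -0.25, FDR 0.0200). At these counts its interval spans from a slight to a more than 2-fold difference, and with shared tags added its ratio was 0.012.

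**Figure D2:**
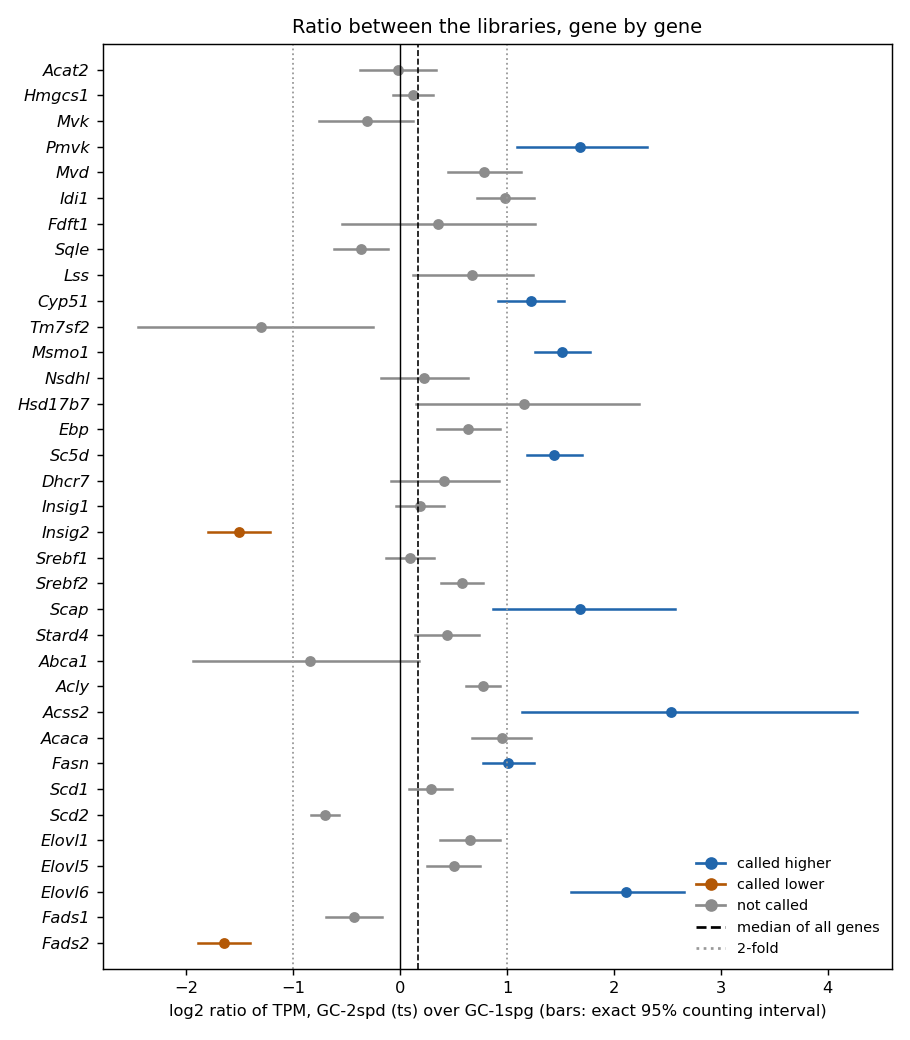
Log2 ratio of TPM, GC-2spd (ts) over GC-1spg, for the 35 listed genes, with exact 95% intervals for counting error as bars, coloured by call (8 higher, 2 lower, 25 not called). The dotted lines mark 2-fold differences and the dashed line the median of all genes at 0.16, and most points lie to the right of it.

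The 5 regulators did not move as 1 group, and their summed levels were 284 and 287 TPM. Of them 1 was called higher (20%, against 11.7% of all genes tested) and 1 lower (20%, against 7.84%). *Insig2* was lower in GC-2spd (ts). It gave 408 and 134 tags (80.4 and 28.3 TPM), 2.84-fold less (log2 ratio -1.50, interval -1.80 to -1.22, FDR 4.99e-28). *Insig1*, its paralogue and a known SREBP target, gave 326 and 346 tags (0.19, -0.03 to 0.41). Thus *Insig1* made up 44.4% of the tags of the pair for GC-1spg (exact interval 40.8 to 48.1) and 72.1% in GC-2spd (ts) (67.8 to 76.1). *Scap*, the escort of the SREBP factors, gave 17 and 51 tags (3.35 and 10.8 TPM), 3.22-fold higher in GC-2spd (ts) (1.69, 0.87 to 2.57, FDR 4.75e-05). When only the CATG site nearest the 3′ end was counted, its log2 ratio was 1.55 with an FDR of 0.00577, and the call was lost.

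The main tags of the called regulators are shown because they differ in depth and in place within the transcript:
Insig2: CATGctttcctatagtgtcag
Scap: CATGgtactggccagtggagg
The *Insig2* tag was counted 331 and 110 times and lies in the 3′ UTR in exon 6 of 6, at chr1:121304689-121304709 on the minus strand. The *Scap* tag was counted 5 and 26 times and lies in the coding sequence in exon 22 of 23, at chr9:110384269-110384289 on the plus strand.

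The SREBP genes themselves were not called. *Srebf1*, whose products act mainly on fatty acid genes, gave 330 and 329 tags (log2 ratio 0.10, interval -0.13 to 0.32), and TMM scaling turned this to -0.076. *Srebf2*, whose product acts mainly on sterol genes, gave 357 and 497 tags (0.58, 0.38 to 0.78, FDR 3.75e-08), a 1.49-fold difference that turned to -0.67 on the log2 scale when tags shared with other genes were added. *Srebf1* made up 48.0% of the pair's tags in GC-1spg (44.2 to 51.8) and 39.8% in GC-2spd (ts) (36.5 to 43.3). Such a share counts tags, not molecules, since each gene is read at its own sites.

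Of the transport genes, *Stard4*, a carrier of sterols between membranes, gave 171 and 216 tags (log2 ratio 0.44, interval 0.14 to 0.74) and *Abca1*, the exporter of cellular cholesterol, gave 25 and 13 tags (-0.84, -1.93 to 0.18). Neither was called.

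All 4 genes of acetyl-CoA supply and fatty acid synthesis had a ratio above 0, with a median log2 ratio of 0.98 against 0.16 over all genes. Of them 2 were called higher (50%, against 11.7% of all genes tested) and 0 lower (against 7.84%). The 4 genes summed to 182 and 336 TPM. *Acss2*, which makes acetyl-CoA from acetate, gave 5 and 27 tags (0.986 and 5.71 TPM), 5.79-fold higher (log2 ratio 2.53, interval 1.14 to 4.27, FDR 0.000175). With 5 tags in GC-1spg the interval is wide, and at an assumed BCV of 0.1 the call was lost (FDR 0.00111). *Fasn*, fatty acid synthase, gave 224 and 420 tags (44.2 and 88.9 TPM), 2.01-fold higher (1.01, 0.77 to 1.25, FDR 6.28e-17). This lies at the 2-fold limit, and the call was lost under TMM scaling (0.83), under scaling to unambiguous sense tags (0.93) and with antisense tags added (0.96).

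The remaining 2 genes of this group fell on the other side of the same limit. *Acly*, which makes acetyl-CoA from citrate, gave 525 and 837 tags (103.5 and 177 TPM, log2 ratio 0.77, interval 0.62 to 0.93, FDR 2.14e-21). *Acaca*, acetyl-CoA carboxylase, gave 169 and 304 tags (0.95, 0.67 to 1.23, FDR 2.36e-11), and was called with a ratio of 1.03 when sense matches were preferred over antisense ones. The intervals of *Fasn*, *Acaca* and *Acly* overlap, and a difference among these genes was not tested.

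The desaturases and elongases shape the chains that fatty acid synthase makes, and their log2 ratios had the widest range of the groups, from 2.11 to -1.64. Of the 7 genes 1 was called higher (14.3%, against 11.7% of all genes tested) and 1 lower (14.3%, against 7.84%). *Elovl6*, which lengthens palmitate, gave 39 and 157 tags (7.69 and 33.2 TPM), 4.32-fold higher in GC-2spd (ts) (2.11, 1.60 to 2.66, FDR 8.61e-19). *Fads2*, the desaturase that starts the making of long polyunsaturated fatty acids, gave 607 and 181 tags (120 and 38.3 TPM), 3.13-fold less in GC-2spd (ts) (-1.64, -1.89 to -1.40, FDR 6.58e-47). *Fads1*, which acts after it, gave 296 and 205 tags (-0.43, -0.69 to -0.17, FDR 0.00287) and was not called. *Fads1* made up 32.8% of the pair's tags in GC-1spg (29.7 to 35.9) and 53.1% in GC-2spd (ts) (48.0 to 58.2).

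The tags behind the 4 calls among fatty acid genes all lie in the 3′ UTR of the last exon of a transcript:
Acss2: CATGagaggcacttgtaggtg
Fasn: CATGatgcagggccatcctga
Elovl6: CATGtgtaacaaatgccagcc
Fads2: CATGagccaagagagaccagt
Their positions in GRCm38 are chr2:155562650-155562670 (plus strand), chr11:120807258-120807278 (minus), chr3:129634422-129634442 (plus) and chr19:10062879-10062899 (minus). They were counted 3 and 22, 159 and 339, 22 and 102, and 529 and 147 times.

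*Scd1* and *Scd2*, which put the double bond into stearate and palmitate, had ratios of opposite sign. *Scd2* had the highest tag count of the list in GC-1spg, with 1364 tags against 781 in GC-2spd (ts) (269 and 165 TPM, log2 ratio -0.70, interval -0.83 to -0.57, FDR 3.97e-27), below the 2-fold limit. *Scd1* gave 375 and 426 tags (0.29, 0.08 to 0.49, FDR 0.0139). The share of *Scd1* in the pair was 21.6% for GC-1spg (19.7 to 23.6) and 35.3% in GC-2spd (ts) (32.6 to 38.1). The elongases *Elovl1*, of saturated very long chains, and *Elovl5*, of polyunsaturated chains, gave 179 and 262 tags (0.65, 0.37 to 0.93) and 238 and 314 tags (0.50, 0.25 to 0.75), and both passed the FDR without reaching 2-fold.

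**Figure D3:**
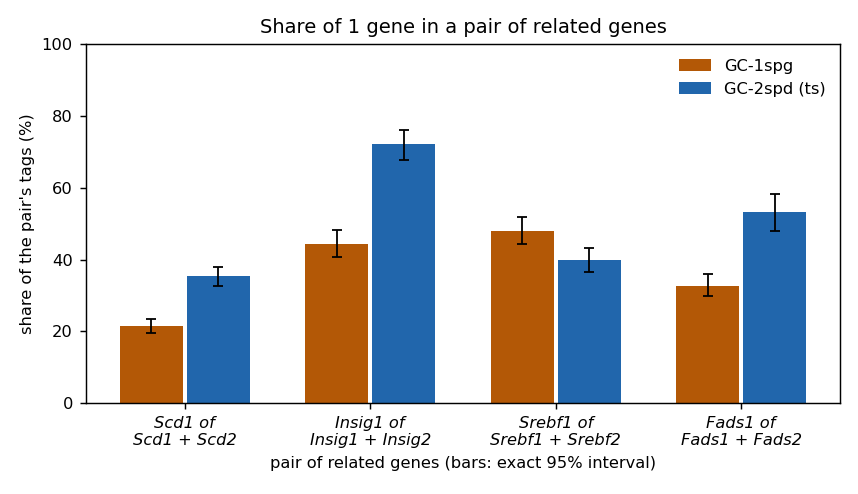
Share of the first-named gene in the unambiguous tags of 4 pairs of related genes, in percent, with exact 95% intervals for counting error. The shares of *Scd1*, *Insig1* and *Fads1* are higher in GC-2spd (ts) (35.3%, 72.1% and 53.1%) and that of *Srebf1* is lower (39.8%).

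Among the 25 genes that were not called, ratios ran from -1.30 to 1.16 on the log2 scale. Of these, 9 passed the FDR and missed only the 2-fold limit, and for another 9 the interval held 0 (*Acat2*, *Hmgcs1*, *Mvk*, *Fdft1*, *Nsdhl*, *Dhcr7*, *Insig1*, *Srebf1* and *Abca1*). The latter is a limit of the counts and does not show equal levels.

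A gene can be read at more than 1 CATG site, and the shares of the sites tell which 3′ part of the transcript was counted. The main tag gave a median of 84.6% of a listed gene's tags, lay in the 3′ UTR for 31 of the 35 genes and at the last CATG site of a transcript for 29. Site use was compared for 4170 genes with at least 2 sites of 20 or more tags by a two-sided Fisher's exact test, with a shift called at an FDR of at most 0.001 and 10 percentage points, and 9.4% of them were called. Of the 20 listed genes that could be tested 1 was called, *Cyp51*. Its main site gave 72 of 126 tags (57.1%) in GC-1spg against 96 of 277 tags (34.7%) in GC-2spd (ts), a shift of -22.5 percentage points (FDR 0.000315). The tags concerned, in order of their counts, are:
Cyp51 tag 1: CATGcccttaatctgtgttag
Cyp51 tag 2: CATGagaaatcaggtattttc
Cyp51 tag 3: CATGatgagaatggccaagac
Cyp51 tag 4: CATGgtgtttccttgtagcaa
Tag 2, at chr5:4081451-4081471, marks the last site of the transcript and was counted 29 and 92 times. Tag 3 lies in the coding sequence in exon 8 of 10, at chr5:4087785-4087805, and was counted 20 and 67 times, and tag 4, at chr5:4081733-4081753 in the 3′ UTR, 5 and 22 times. Each of the 4 tags was more frequent in GC-2spd (ts), and tag 1 had the smallest ratio between the libraries.

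In *Msmo1* the libraries carried different letters at 1 site of the 3′ UTR, at chr8:64718577-64718597 on the minus strand:
Msmo1 GC-2spd (ts): CATGgtgtattttagaaatta
Msmo1 GC-1spg: CATGgtatattttagaaatta
The tag with the GRCm38 letters was counted 0 times in GC-1spg and 102 times in GC-2spd (ts), and the tag with the substitution G7A (counted from 1 at the C of CATG) 63 times in GC-1spg and 0 times in GC-2spd (ts). Because 1 mismatch was allowed, both counted for *Msmo1*, whose main site then gave 62.5% of tags in GC-1spg against 77.2% in GC-2spd (ts) (FDR 0.00246, not called). With exact matches only, the GC-1spg form was lost, the shares became 100% and 77.2%, and *Msmo1* was called for a shift in site use.

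**Figure D4:**
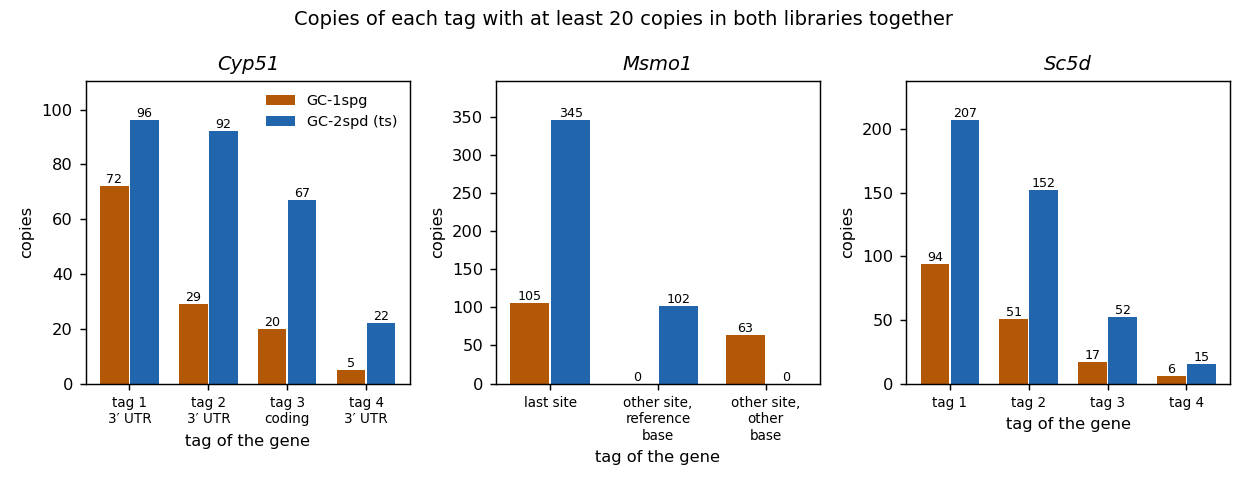
Copies of each tag with at least 20 copies over both libraries for *Cyp51*, *Msmo1* and *Sc5d*, as bars starting at 0 with the copy number above each bar. The *Cyp51* bars have the smallest ratio at tag 1 (72 and 96), and the second *Msmo1* site shows 1 form in each library (63 copies in GC-1spg, 102 of the other form in GC-2spd (ts)).

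Tags on the antisense strand of the listed genes made up 12.5% of their tags in GC-1spg but 11.8% in GC-2spd (ts), against 12.2% and 10.9% over all genes. They did not follow the sense tags in every gene. *Acat2*, with sense counts of 141 and 130, had 53 and 100 antisense tags. In *Elovl5* (sense 238 and 314, antisense 60 and 121) both counts were higher in GC-2spd (ts). The same held for *Insig1* (sense 326 and 346, antisense 81 and 124). For *Acly* the antisense counts were 191 and 184, beside sense counts of 525 and 837. *Fads2*, lower on the sense strand, also had fewer antisense tags in GC-2spd (ts), with 125 and 19. Antisense counts were not tested.

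Promoters were read from RefSeq (GRCm38.p6) as 250 bases before and 50 after the start of each gene, and 29 of the 36 genes had one. On both strands 3 strings were searched, none of which contains another: CCAAT, the NF-Y box that often stands beside SREBP sites, the GC box GGGCGG, and the sterol regulatory element TCACNCCAC. CCAAT was found in 14 of the 15 promoters of sterol enzymes (93.3%) and in 5 of 8 of fatty acid enzymes (62.5%), against 43.2% of the protein-coding genes with a tag. The GC box was found in 14 of 15 promoters of sterol enzymes (93.3%), 4 of 8 of fatty acid enzymes (50%) and 5 of the 8 of genes called higher (62.5%), against 68.6% of those protein-coding genes. The sterol element was found in *Hmgcs1* alone (1 of 29, against 1.32%). The 4 sterol enzymes called higher all carry CCAAT, shown in capitals on the gene's strand (ATTGG where it lies on the other strand), and *Hmgcs1* with its sterol element is added for comparison:
Pmvk: ctcaggttggCCAATtcacagcatc
Cyp51: ctgtccgccaCCAATctggtcctga
Msmo1: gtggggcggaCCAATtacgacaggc
Sc5d: ccggctgctgATTGGccggctgcct
Hmgcs1: tcaccgtcTCACCCCACttcccagg
They lie at chr3:89454395-89454419, chr5:4104712-4104736, chr8:64733619-64733643, chr9:42264310-42264334 and chr13:119690206-119690230. CCAAT does not separate the called from the other sterol enzymes, since *Mvk*, *Lss* and *Tm7sf2* carry it too. A match describes the letters and not binding, and no match says only that these letters are not in this window.

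The wider pathway was examined in 56 further genes of sterol and fatty acid metabolism, of which 50 had a tag. Of these, 13 were called higher in GC-2spd (ts) (26.0%, against 11.7% of all genes) and 3 lower (6.00%, against 7.84%). Their median log2 ratio was 0.29, against 0.16 over all genes. Among all genes with at least 100 tags 16.5% were called higher, and the wider list was not compared at that depth. The lipoprotein receptors *Lrp8* and *Scarb1* were higher, with 33 and 227 tags (log2 ratio 2.88) and 57 and 218 tags (2.04). So were *Mbtps2*, the protease that frees SREBP from the membrane, with 48 and 185 tags (2.05), *Lbr*, the lamin B receptor with sterol reductase activity, with 26 and 82 tags (1.76), and *Elovl4*, an elongase of very long chains, with 27 and 189 tags (2.91). Of these 5 genes *Lbr* had the highest FDR (4.24e-08), and its call was lost when only the last CATG site was counted. *Mbtps1*, the protease that cuts before *Mbtps2*, gave 314 and 336 tags (0.20). In the main setting *Lbr* had the opposite sign to *Tm7sf2*. The latter was not called, with 29 and 11 tags, and its ratio was 0.012 with shared tags added. The 3 lower genes were *Mid1ip1*, an activator of acetyl-CoA carboxylase (410 and 105 tags, -1.86), *Nr1h2*, the liver X receptor beta (703 and 236 tags, -1.47), and *Acsl4*, an acyl-CoA synthetase that prefers arachidonate (299 and 122 tags, -1.19).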

How the data were processed

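Per the labels, total RNA of each cell line gave 1 DGE library. The authors removed adaptor, low-quality and single-copy tags and deposited, for each clean tag, its raw count (copy number) and the same value as TPM. No copy number is below 2, and 1 copy equals 0.197 TPM (GC-1spg) or 0.212 TPM (GC-2spd (ts)), which sets the precision. For the program behind the tag lists, the sources used here name none.

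CATG plus 17 bases was taken at each site of 141767 GENCODE M21 transcripts (GRCm38, 55450 genes) on both strands. Tags were assigned by exact match or, failing that, by matches with 1 mismatch, and kept if the best matches fell on the sense strand of a single gene. This held for 54.7% and 57.9% of the clean tags. Kept counts were summed per gene and divided by all clean tags. The Audic-Claverie test was adjusted (Benjamini-Hochberg) over 14450 genes, and 0.01 TPM replaced 0. edgeR's quasi-likelihood test could not be fitted without replicates. Ratio intervals are conditional binomial and share intervals Clopper-Pearson, at 95%. Calling was run on simulated counts with known changes (4-fold in 200 genes for the ratio calls). The simulation held counting error only, so it cannot show how calls fare with spread between replicates. The tools were Python 3.11.15 (scipy 1.17.1, numpy 2.4.6, pandas 2.3.3, matplotlib 3.10.9) and R 4.3.3 (edgeR 4.0.16).

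The listed genes, the wider list and the marker lists were chosen with earlier results of these data known. All 36 listed genes are named, and of the wider list the called genes with at least 20 tags, at most 5 in each direction by absolute log2 ratio. *Mbtps1* was named after its value was seen. Other enzymes of the pathway were not analysed here. The 14 alternatives were exact matches, the last CATG site, sense matches preferred, pseudogenes left out, shared tags added, both strands summed, 2 other scalings, an exact binomial test, edgeR's exact test at a BCV of 0.1, 0.2 or 0.4, a minimum of 10 tags, and 0.5 added tags.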

Additional observations from a re-analysis of the deposited data

How the results depend on the processing

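No paired analysis was possible because each cell line has 1 library, and for the same reason no library could be left out in turn. The counts of genes were sensitive mainly to the spread assumed in edgeR's exact test. At a BCV of 0.2 and 0.4, the listed genes called higher numbered 1 and 0 (8 without an assumed spread) and those called lower 0 and 0 (from 2), all genes called higher 511 and 108 (from 1684) and lower 489 and 136 (from 1133), and genes of the wider list called higher 4 and 0 (from 13) and lower 1 and 0 (from 3). With shared tags added to every gene, 2542 of all genes were called higher. With exact matches only, 2 listed genes rather than 1 showed a shift in site use, since the GC-1spg form of a *Msmo1* tag was then not counted. TMM scaling moved the share of higher calls among all calls from 59.8% to 47.2%. Ratios that changed sign belonged to genes that were not called: *Acat2* to 0.14 with shared tags and 0.35 with both strands, *Hmgcs1* to -0.0049 at the last site and -0.057 under TMM, *Srebf1* to -0.19 and -0.076 under the same settings, *Fdft1* to -0.10 and *Nsdhl* to -0.48 at the last site, and *Tm7sf2* to 0.012 and *Srebf2* to -0.67 with shared tags. At the last site the main tags of *Nsdhl* and *Srebf1* (site 2 from the 3′ end) and *Fdft1* (site 11) were not counted. *Idi1*, with its main tag at site 2, had no value in that setting. The cause of the sign changes was not tested. Of the 10 calls, those of *Pmvk*, *Msmo1*, *Sc5d*, *Insig2* and *Fads2* were kept in 12 of 14 settings, being lost only at the assumed BCV of 0.2 and 0.4, and that of *Elovl6* in 13. *Acss2* was also lost at a BCV of 0.1. *Idi1* was called with both strands (1.01).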
